A study of Mus musculus with 18 samples.

Results

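The genes described are 9 transcription factors and cofactors of the pituitary cell lineages: Pou1f1, Gata2, Zfpm1, Nr5a1, Pitx1, Lhx3, Lhx4, Isl1 and Neurod4. They were chosen by symbol, and all 9 were found among the 24054 genes measured in each tissue. Bulk RNA-Seq was compared between mice carrying the K146Q mutation of THRB, the thyroid hormone receptor beta, and WT mice in 18 libraries of pituitary, hypothalamus and thyroid. The mutation is a global knock-in that replaces the sumoylated lysine K146 with glutamine in every THRB isoform and every tissue. All mice were males of 3 months, labelled C57BL/Ntac and given no treatment, with 3 mice per genotype (WT mice 1, 2 and 43 and K146Q mice 60, 62 and 83) and 1 library per mouse and tissue. A change of a single codon cannot be seen in a count over a whole gene, so the reads do not check the genotype.

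The anterior pituitary makes its hormones in separate cell types, each of which depends on a set of transcription factors. PITX1, a bicoid-related homeodomain protein, and the LIM homeodomain proteins LHX3 and LHX4 act early and widely in the gland, and ISL1, a further LIM homeodomain protein, is known for its part in thyrotropes. POU1F1, also called Pit-1, is needed for somatotropes, lactotropes and thyrotropes, which make growth hormone, prolactin and thyrotropin, and NEUROD4 is a bHLH factor that acts with it in the growth hormone lineage. GATA2 works with POU1F1 at the Tshb promoter in thyrotropes and with NR5A1 (steroidogenic factor 1) in gonadotropes, and ZFPM1, known as FOG1, is a cofactor that binds GATA proteins.

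The libraries held 14902330 to 21230050 reads. Levels are given in CPM, reads scaled to a common library size, and 3 reads were worth 0.133 to 0.190 CPM. Anterior pituitary hormone genes (Gh, Prl, Tshb and Pomc) summed to at least 87889 CPM in every pituitary library. They were also present at 112 to 167 CPM in hypothalamus and 91.8 to 498 CPM in thyroid. Of the 4 macrophage markers, 3 rose in K146Q pituitary, with a summed level of 62 to 70.3 CPM in WT mice and 102 to 152 CPM in K146Q mice. All 4 rose in K146Q thyroid, and 0 of 4 changed in hypothalamus. Tshb, the thyrotropin beta subunit, measured 235 to 593 CPM in WT pituitary and 5600 to 8183 CPM in K146Q pituitary. The study's staining also counted a larger share of thyrotropin-positive cells in K146Q pituitary. In whole tissue, a changed number of cells of a type and changed RNA per cell cannot be told apart.

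In WT pituitary the 9 factors spanned a wide range of levels per length of merged exon. Pitx1 was highest at 78.2 ± 4.72 CPM per kb (mean ± SD, n = 3 here and throughout). Lhx3 followed at 37.0 ± 4.35 CPM per kb and Pou1f1 at 31.7 ± 3.48 CPM per kb, and the libraries of these neighbours overlapped. Neurod4 at 13.1 ± 2.56 CPM per kb and Gata2 at 12.6 ± 1.16 CPM per kb overlapped as well. Below them stood Nr5a1 at 9.76 ± 0.931 CPM per kb, Zfpm1 at 8.004 ± 1.18 CPM per kb, Isl1 at 2.76 ± 0.257 CPM per kb and Lhx4 at 0.135 ± 0.0185 CPM per kb, with no overlap between neighbours from Gata2 downward. Overlap covers the spread between mice and not an error in exon length. The annotation used for the lengths may differ from that used for counting, so the order of close neighbours is uncertain. In K146Q pituitary Gata2 stood at 24.1 ± 4.24 CPM per kb, close to Pou1f1 at 27.9 ± 2.84 and Lhx3 at 27.4 ± 1.52 CPM per kb. There the mean of Neurod4 at 6.54 ± 1.82 CPM per kb lay below that of Zfpm1 at 8.71 ± 1.78 CPM per kb, but the libraries of Neurod4 and Zfpm1 overlapped.

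Most of the factors were far higher in pituitary than in the other tissues of WT mice. The mean CPM of Pitx1 was 462 times its hypothalamic and 72.1 times its thyroid level, that of Lhx3 was 275 and 360 times, and that of Gata2 was 9.18 and 3.84 times. The largest of these ratios are rough. Over the 3 WT libraries hypothalamus had 23 reads of Pitx1 and 21 of Lhx3. Thyroid had 15 reads of Lhx3, of which 11 were in WT mouse 1. Nr5a1 was 8.45 times higher in pituitary than in hypothalamus, where it marks the ventromedial nucleus, and had 1 to 4 reads in each WT thyroid library. Zfpm1 and Isl1 were the exceptions. Zfpm1 lay between 23.3 and 33.2 CPM in all 9 WT libraries with overlap between pituitary and each other tissue, and WT Isl1 was lower in pituitary (9.92 to 11.95 CPM) than in hypothalamus (12.4 to 13.3 CPM) and thyroid (14.5 to 22.4 CPM). Lhx4 had 12 to 23 reads per pituitary library, at most 3 in hypothalamus and 0 in all 6 thyroid libraries.

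**Figure D1:**
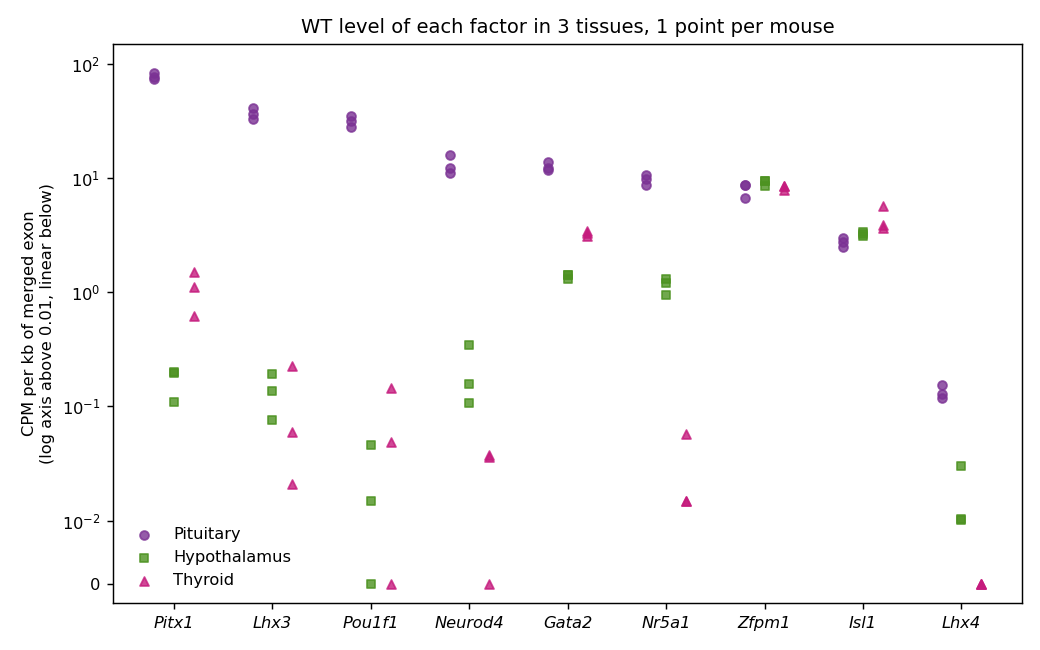
Level of each factor in WT mice in CPM per kb of merged exon, on a log axis above 0.01 and a linear one below it, with 1 point per mouse and a symbol for each tissue. Pitx1, Lhx3, Pou1f1 and Neurod4 are high in pituitary and far lower elsewhere. Zfpm1 overlaps between pituitary and each other tissue, and Isl1 is lower in pituitary than in the other tissues without overlap.

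Promoter sequence shows how letters that these factors can read lie before the hormone genes and before the factors themselves. The 250 bases before each RefSeq transcript start (build GRCm38.p6) were searched on both strands for 6 short motifs, and a window was held for 7 of the 9 factors and for 12 of the 15 genes looked for. The letters searched for GATA factors were AGATAA, which 9.988% of 32851 windows of the same length held. The motif searched for POU1F1 was TATNCAT, with N for any base, and was held by 7.924% of windows. For the PITX proteins it was TAATCC, which lay in 6.252% of windows. LIM homeodomain proteins read TAATTA, a palindrome found in 4.84% of windows. The letters searched for NR5A1 were AAGGTCA, present in 4.079% of windows. For bHLH factors they were CAGATG, present in 14.44% of windows. None of the matches below overlapped another.

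Tshb and Cga are shown because they encode the subunits of thyrotropin, Prl and Pou1f1 because POU1F1 is known to act on both, and Isl1 because it changed in pituitary and its main window holds a match. Capitals mark the matched letters, and each sequence runs 5′ to 3′ on the strand of its gene, ending at the base before the start. The windows are chr3:102782715-102782964 on the minus strand (Tshb), chr4:34893529-34893778 on the plus strand (Cga), chr13:27057320-27057569 on the plus strand (Prl), chr16:65520262-65520511 on the plus strand (Pou1f1) and chr13:116309689-116309938 on the minus strand (Isl1).
Tshb: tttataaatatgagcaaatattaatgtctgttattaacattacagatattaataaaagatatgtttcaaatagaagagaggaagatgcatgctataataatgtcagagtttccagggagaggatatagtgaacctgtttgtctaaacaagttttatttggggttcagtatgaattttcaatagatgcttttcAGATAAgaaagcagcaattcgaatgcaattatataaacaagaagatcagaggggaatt
Cga: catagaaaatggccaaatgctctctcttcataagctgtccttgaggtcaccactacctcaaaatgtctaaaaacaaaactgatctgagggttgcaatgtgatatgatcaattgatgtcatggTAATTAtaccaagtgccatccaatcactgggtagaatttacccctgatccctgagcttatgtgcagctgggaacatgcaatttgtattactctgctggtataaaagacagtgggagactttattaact
Prl: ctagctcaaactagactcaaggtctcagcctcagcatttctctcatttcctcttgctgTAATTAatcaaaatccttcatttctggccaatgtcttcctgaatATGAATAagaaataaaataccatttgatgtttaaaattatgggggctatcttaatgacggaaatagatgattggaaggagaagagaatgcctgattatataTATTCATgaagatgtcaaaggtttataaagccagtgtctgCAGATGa
Pou1f1: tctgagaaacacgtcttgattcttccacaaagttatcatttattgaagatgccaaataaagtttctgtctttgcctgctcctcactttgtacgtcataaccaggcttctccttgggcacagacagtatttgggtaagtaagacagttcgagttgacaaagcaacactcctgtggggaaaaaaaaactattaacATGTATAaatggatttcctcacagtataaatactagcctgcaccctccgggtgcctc
Isl1: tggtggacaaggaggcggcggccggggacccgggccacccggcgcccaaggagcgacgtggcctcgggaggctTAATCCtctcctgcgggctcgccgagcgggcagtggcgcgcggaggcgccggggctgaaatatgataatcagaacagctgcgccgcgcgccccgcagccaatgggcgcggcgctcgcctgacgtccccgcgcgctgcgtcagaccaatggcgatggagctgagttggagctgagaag
The Tshb window holds the GATA letters 58 to 53 bases before the start, and the Cga window the LIM homeodomain letters 128 to 123 bases before it. The Prl window holds the POU1F1 letters at 148 to 142 and at 47 to 41 bases, the LIM homeodomain letters at 192 to 187 and the bHLH letters at 7 to 2. Pou1f1 holds the POU1F1 letters 57 to 51 bases before its own start, and Isl1 the PITX letters at 177 to 172. The Lhb window (chr7:45420696-45420945) holds the NR5A1 letters at 129 to 123 bases, and a further Lhx3 window the bHLH letters at 215 to 210. No match lay in the windows of Gata2, Zfpm1, Lhx4, Neurod4 and Fshb. A match describes letters and is not a measured site of binding. Each motif was searched in the stated form alone, so a window without a match can hold other forms.

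**Figure D2:**
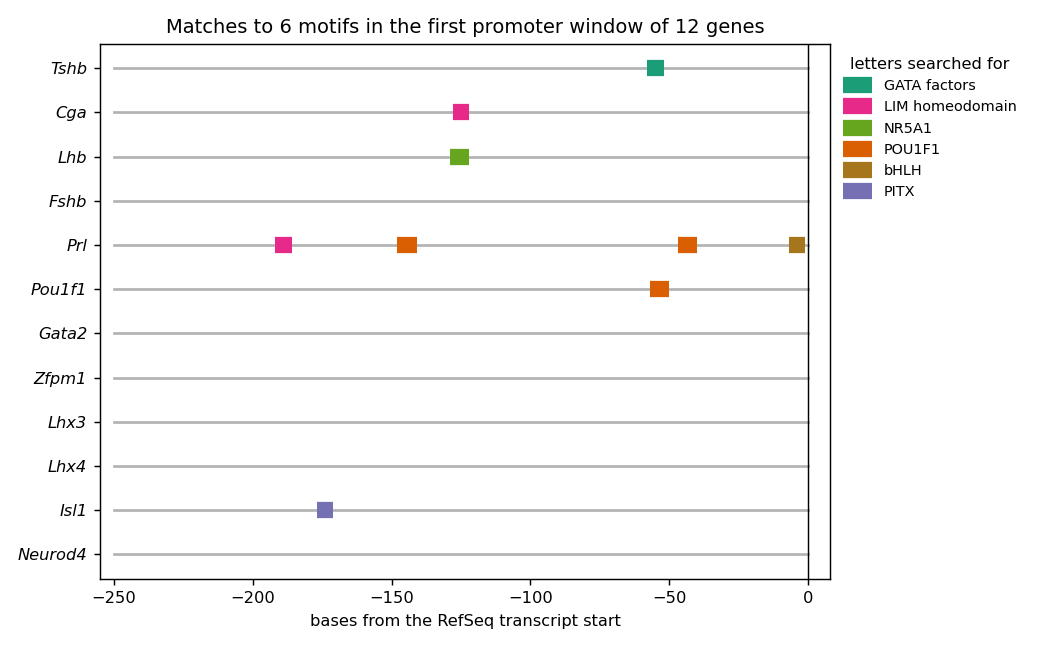
Position of each match along the 250 bases before the transcript start in the first window of each of 12 genes, in bases from the start, with a colour for each set of letters. Prl carries 4 matches, Tshb, Cga, Lhb, Pou1f1 and Isl1 carry 1 each, and the first windows of the other genes carry none. Further windows, such as that of Lhx3 with a match, are not drawn.

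In pituitary, the K146Q mutation was accompanied by opposite changes within the group. Gata2 and Isl1 rose to 1.91 and 1.81 times their WT means, and Neurod4 and Lhx3 fell to 0.499 and 0.741 times theirs. The other 5 factors, including Pou1f1, did not pass the test. All 9 factors passed the filter on low values, and 4 of 9 were called at an adjusted p under 0.05 (limma on log2(CPM + 0.5), Benjamini-Hochberg over 15589 genes), where 9.86% of all genes tested were called. Of the 9, 2 were higher and 2 lower, against 6.36% and 3.50% of all genes. The same 4 factors had no overlap between genotypes, as did 31.0% of all genes. The median log2 fold change of the 9 factors was 0.11, against -0.0088 over all genes tested. Of the genes called 991 were higher and 546 lower, and with totals taken without the 10 highest genes 841 were higher and 885 lower. The 4 factors kept their calls under that scaling. Without the filter 0 of 9 factors and 291 genes of 24054 were called, the adjusted p-values being 0.0828 for Gata2, 0.110 for Isl1, 0.135 for Lhx3 and 0.145 for Neurod4. In that fit Cga, at 5.36 times its WT mean, was not called either. Without K146Q mouse 60, 2 of 9 factors were called.

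**Figure D3:**
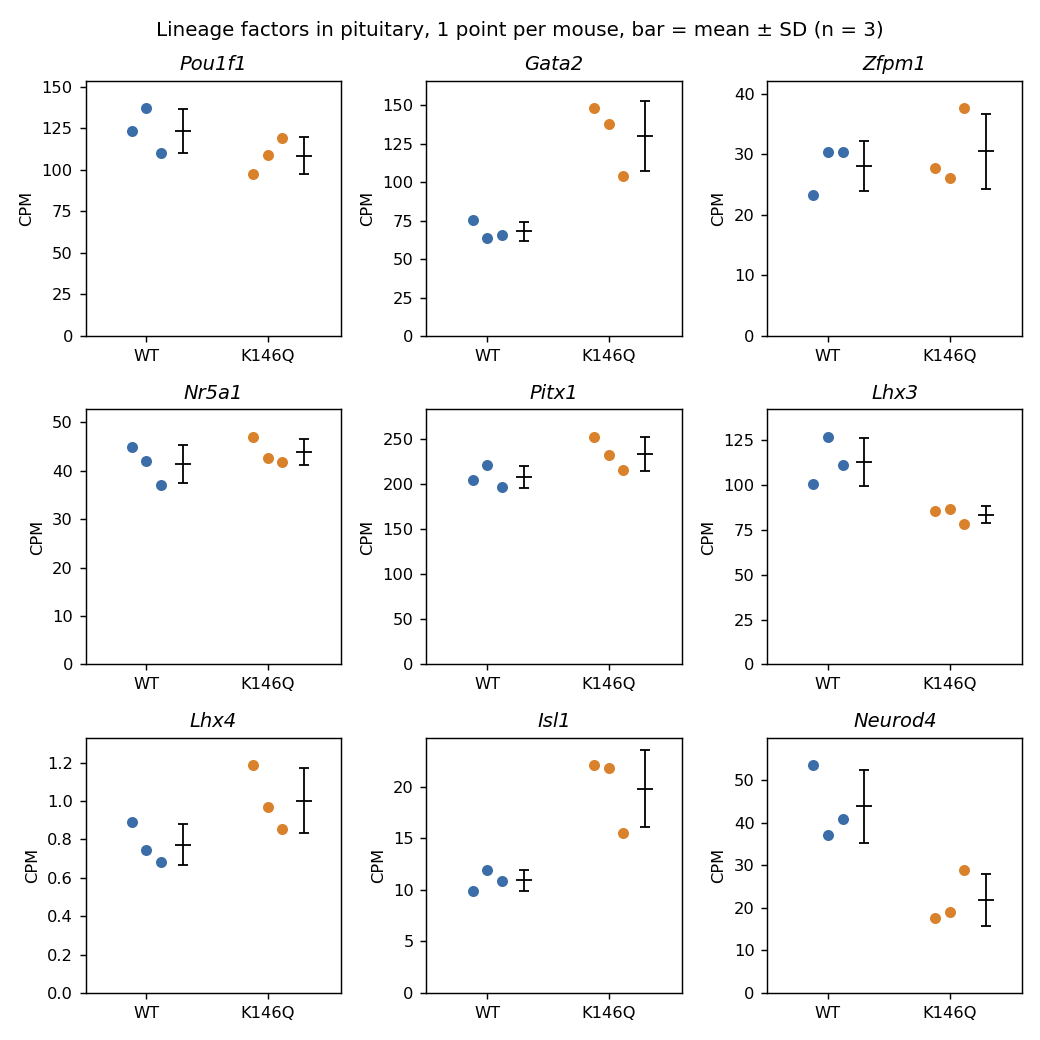
CPM of each factor in pituitary, 1 point per mouse (WT blue, K146Q orange), with the mean ± SD beside each group and every axis starting at 0. The genotypes are apart for Gata2, Isl1, Lhx3 and Neurod4 and overlap for the other 5 factors.

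Gata2 (chromosome 6, 88193891 to 88207032, plus strand, GRCm38, as for all gene positions), the GATA factor of thyrotropes and gonadotropes, measured 75.3, 63.4 and 65.8 CPM in WT mice 1, 2 and 43. It measured 148, 138 and 104 CPM in K146Q mice 60, 62 and 83. Every K146Q pituitary lay above every WT pituitary, and mouse 83 was the closest to the WT range. The log2 fold change was 0.92 (SE 0.13, limma adjusted p = 0.00208), and the call held without any 1 of the 6 libraries, with log2 fold changes of 0.81 to 1.07. The exact two-sided permutation test gave p = 0.1 for Gata2, which is the smallest that 3 against 3 mice allow, and the same p for Isl1, Lhx3 and Neurod4. Endothelial and blood lineage cells can also express Gata2. Of 5 endothelial markers, Pecam1 alone rose (log2 fold change 0.45, limma adjusted p = 0.00998; 0.0627 without K146Q mouse 60), and the 5 summed to 248 to 268 CPM in WT mice and 286 to 292 CPM in K146Q mice. Of 5 mast cell and megakaryocyte markers 2 were tested and 0 called, and Cpa3 and Cma1 were at or below 0.399 CPM in every pituitary library. The part of these cells, or of a changed share of thyrotropes, in the Gata2 result was not tested.

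Isl1 (chromosome 13, 116298281 to 116309689, minus strand) was present at a lower level and moved in the same direction. It measured 9.92, 11.95 and 10.9 CPM in WT mice and 22.1, 21.8 and 15.5 CPM in K146Q mice. The genotypes did not overlap, and mouse 83 was again the K146Q mouse nearest to WT. The log2 fold change was 0.82 (SE 0.15, limma adjusted p = 0.00872), and the adjusted p was 0.0504 without K146Q mouse 60. The macrophage markers Csf1r (log2 fold change 0.97, limma adjusted p = 0.00178), C1qa (0.90, adjusted p = 0.00220) and Ptprc (0.93, adjusted p = 0.0155) rose in the same libraries. The adjusted p of Ptprc was 0.0565 without WT mouse 2, 0.0803 without K146Q mouse 60 and 0.0722 without K146Q mouse 62. The part of macrophages, or of a changed share of thyrotropes, in the Isl1 result was not tested.

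Neurod4 (chromosome 10, 130268152 to 130280240, minus strand), the bHLH factor of the growth hormone lineage, measured 53.5, 37.2 and 40.8 CPM in WT mice. In K146Q mice it measured 17.7, 19.1 and 28.8 CPM. All 3 K146Q values were below all 3 WT values, and mouse 83 was the highest of them. Neurod4 fell by 1.002 on the log2 scale (SE 0.19, limma adjusted p = 0.00976), and the call held in all 6 fits that left out a library, with log2 fold changes of -1.21 to -0.85. The part of a changed share of cell types in the falls of Neurod4 and Lhx3 was not tested.

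Lhx3 (chromosome 2, 26200212 to 26208289, minus strand), which acts early in most anterior lineages, was 100.3, 127 and 111 CPM in WT mice and 85.6, 86.5 and 78.1 CPM in K146Q mice. The groups did not overlap, though the gap between WT mouse 1 and K146Q mouse 62 was small. The log2 fold change was -0.43 (SE 0.094, limma adjusted p = 0.0206). Of the 4 calls, that of Lhx3 was lost under the most of the 15 alternatives run (5). The adjusted p was 0.0729, 0.0616 and 0.0646 without K146Q mouse 60, 62 and 83, and 0.0666 without a mean-variance trend. In the annotation 188 exon bases of Lhx3 are shared with an antisense gene, and because the strand setting of the counting is not given in the sources used here, their reads cannot be told apart. Lhx4, the close relative of Lhx3, had 0.890, 0.744 and 0.684 CPM in WT mice and 1.19, 0.970 and 0.853 CPM in K146Q mice. The groups overlapped, the log2 fold change was 0.24 (SE 0.19, limma adjusted p = 0.491), and counts this low leave a 95% interval of -0.19 to 0.67.

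Pou1f1 (chromosome 16, 65520511 to 65535005, plus strand), on which the growth hormone, prolactin and thyrotropin lineages depend, measured 123, 137 and 110.0 CPM in WT mice. It measured 97.4, 109 and 119 CPM in K146Q mice. The groups overlapped, and the log2 fold change of -0.18 (SE 0.10, 95% interval -0.41 to 0.04) did not pass the test (limma adjusted p = 0.298). Pitx1 (chromosome 13, 55825051 to 55836192, minus strand) measured 204, 222 and 197 CPM in WT mice and 252, 233 and 215 CPM in K146Q mice. K146Q mouse 83 lay within the WT range, and the log2 fold change was 0.17 (SE 0.080, limma adjusted p = 0.230). Pou1f1 shares 136 and Pitx1 273 exon bases with other annotated genes.

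Zfpm1 and Nr5a1, the partners of GATA2, did not pass the test in pituitary. Zfpm1 (chromosome 8, 122282141 to 122337251, plus strand) was 23.3, 30.4 and 30.4 CPM in WT mice and 27.8, 26.1 and 37.6 CPM in K146Q mice. The groups overlapped, the log2 fold change was 0.11 (SE 0.15, limma adjusted p = 0.703), and its sign turned without WT mouse 1 (-0.014) or K146Q mouse 83 (-0.046). Nr5a1 (chromosome 2, 38692656 to 38714542, minus strand) was 44.9, 42.1 and 37.1 CPM in WT mice and 47.0, 42.7 and 41.9 CPM in K146Q mice. Its log2 fold change of 0.085 had a 95% interval of -0.13 to 0.30 and an adjusted p of 0.628 (limma).

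Ratios of reads within a library do not depend on how libraries are scaled, and they set the factors against each other in each mouse. Reads of Gata2 per read of Pou1f1 were 0.611, 0.463 and 0.598 in WT mice and 1.52, 1.27 and 0.873 in K146Q mice. Pou1f1 reads outnumbered Gata2 reads in all WT mice and in K146Q mouse 83 but not in mice 60 and 62. These reads are not divided by length, and Gata2 has 5398 merged exon bases against 3891 for Pou1f1. Which count is larger therefore does not rank the levels of the 2 factors. The mean log2 ratio was 1.10 higher in K146Q mice without overlap (exact two-sided permutation p = 0.1, the smallest possible here). Nr5a1 per Gata2 was 0.597, 0.664 and 0.565 in WT mice and 0.318, 0.310 and 0.402 in K146Q mice, a log2 difference of -0.83 without overlap (exact permutation p = 0.1).

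Zfpm1 per Gata2, the cofactor set against its partner, was 0.309, 0.480 and 0.462 in WT mice and 0.188, 0.189 and 0.361 in K146Q mice. K146Q mouse 83 lay inside the WT range, so the log2 difference of -0.81 came with overlapping groups (exact permutation p = 0.2). Pitx1 per Pou1f1 was 1.66, 1.62 and 1.79 in WT mice and 2.59, 2.14 and 1.80 in K146Q mice, a log2 difference of 0.35 that rested on a narrow gap between WT mouse 43 and K146Q mouse 83 (exact permutation p = 0.1). Lhx3 per Lhx4 averaged 148 ± 31.2 in WT mice and 84.3 ± 10.6 in K146Q mice (exact permutation p = 0.1), with only 12 to 23 Lhx4 reads in each library. With 5 ratios compared and a smallest p of 0.1, no ratio could pass a threshold of 0.05. The ratios that include Gata2 share its reads, and Nr5a1 and Zfpm1 were not called by themselves. Those ratios are therefore not separate from the Gata2 result.

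**Figure D4:**
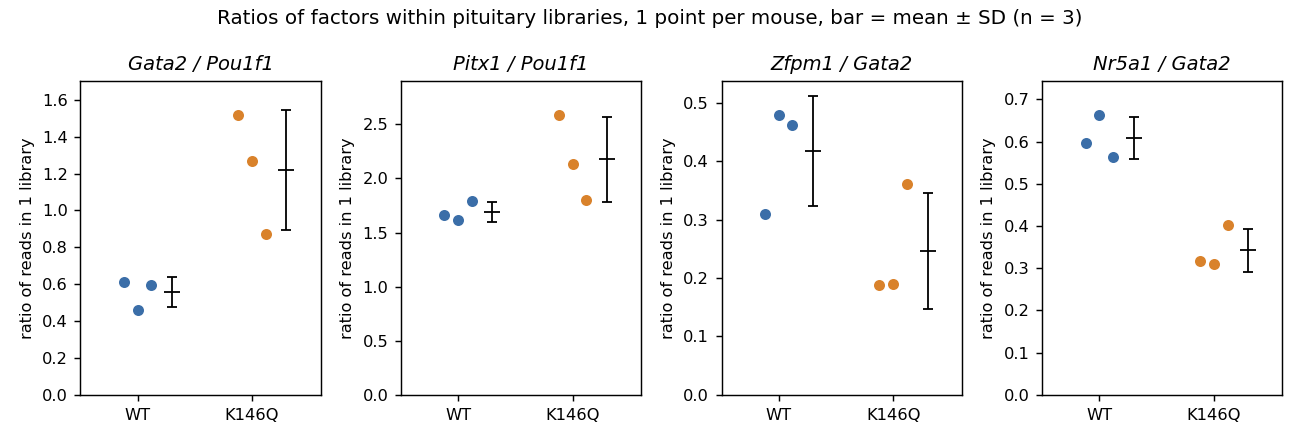
Ratio of reads of paired factors in each pituitary library, 1 point per mouse (WT blue, K146Q orange), with the mean ± SD of each group. Gata2 per Pou1f1 is higher and Nr5a1 per Gata2 lower in every K146Q mouse, while the genotypes overlap for Zfpm1 per Gata2.

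In hypothalamus, none of the factors passed the test. Of the 9 factors 6 passed the filter on low values, and 0 of 6 were called by limma, as were 0 of 15761 genes (0.00% called). At an unadjusted p under 0.05 there were 645 genes, and edgeR called 0 and DESeq2 9 genes. Gata2 was 7.64, 7.63 and 7.02 CPM in WT mice and 7.85, 6.40 and 5.27 CPM in K146Q mice, with overlap and a log2 fold change of -0.19 (SE 0.14, limma adjusted p = 0.998). Isl1, a gene of arcuate neurons in this tissue, was 12.7, 13.3 and 12.4 CPM in WT mice and 11.5, 11.3 and 11.9 CPM in K146Q mice. Isl1 was the only factor of the 6 without overlap, as were 9.15% of all genes, and its log2 fold change was -0.14 (SE 0.081, limma adjusted p = 0.998). Nr5a1 was 4.05 to 5.51 CPM in WT mice and 2.35 to 5.27 CPM in K146Q mice, with mouse 62 the lowest. Zfpm1 was 30.1 to 33.2 CPM in WT mice and 31.7 to 35.1 CPM in K146Q mice. Pitx1 had 5 to 22 and Neurod4 6 to 20 reads per library, and Lhx3 had 4 to 10, Pou1f1 0 to 4 and Lhx4 0 to 3. The values of these 5 rest on few reads.

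In thyroid, Isl1 rose and Pitx1 fell. Of the 9 factors 4 passed the filter and 2 of 4 were called, in a tissue where 37.8% of all genes tested were called (limma, 15200 genes), 19.7% (2992) higher and 18.1% (2747) lower (2502 and 3629 with totals taken without the 10 highest genes). The 2 factors called had no overlap between genotypes, as did 52.3% of all genes. Isl1 was 22.4, 14.5 and 15.3 CPM in WT mice and 36.4, 53.8 and 47.0 CPM in K146Q mice. Every K146Q value was above every WT value, and the log2 fold change was 1.38 (SE 0.20, limma adjusted p = 0.00168), a call that held in all 6 fits without a library. Markers of several cell types moved in the same libraries. The 4 macrophage markers rose, from a summed 116 to 168 CPM in WT mice to 321 to 368 CPM in K146Q mice. Of the 4 C cell markers Calca, Gfra4 and Ret fell and Calcb rose, with a sum of 2199 to 2701 CPM in WT mice and 214 to 359 CPM in K146Q mice, and Calca, the calcitonin gene that defines these cells, had a mean of 2273 CPM in WT mice and 213 CPM in K146Q mice. The part of either cell type in the Isl1 result was not tested.

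Pitx1 was far lower in thyroid than in pituitary, with 2.97, 1.65 and 4.03 CPM in WT mice and 1.04, 1.18 and 0.762 CPM in K146Q mice, from 13 to 67 reads per library. The groups did not overlap, but WT mouse 2 was close to the K146Q mice. The log2 fold change was -1.12 (SE 0.29, limma adjusted p = 0.0203), and the adjusted p was 0.0557, 0.0563 and 0.0658 without WT mouse 1, WT mouse 43 and K146Q mouse 83, and 0.0818 without the filter. In the same libraries the 3 parathyroid markers fell (3454 to 6409 CPM summed in WT mice and 523 to 1569 CPM in K146Q mice), as did the 4 fat markers (249 to 389 CPM and 34.8 to 69.0 CPM). Anterior pituitary hormone genes summed to 129 to 498 CPM in WT thyroid and 91.8 to 138 CPM in K146Q thyroid with 0 of 4 called, and skeletal muscle markers to 221 to 4770 CPM and 494 to 2787 CPM with 0 of 3 called. The part of these tissues in the Pitx1 and Isl1 results was not tested. Gata2 was 16.7, 18.7 and 17.8 CPM in WT mice and 14.6, 17.2 and 17.4 CPM in K146Q mice, with overlap (log2 fold change -0.12, limma adjusted p = 0.450). Zfpm1 was 27.5 to 30.1 CPM in WT mice and 27.4 to 32.0 CPM in K146Q mice, also with overlap. Pou1f1, Nr5a1, Lhx3 and Neurod4 had at most 11 reads in any thyroid library.

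**Figure D5:**
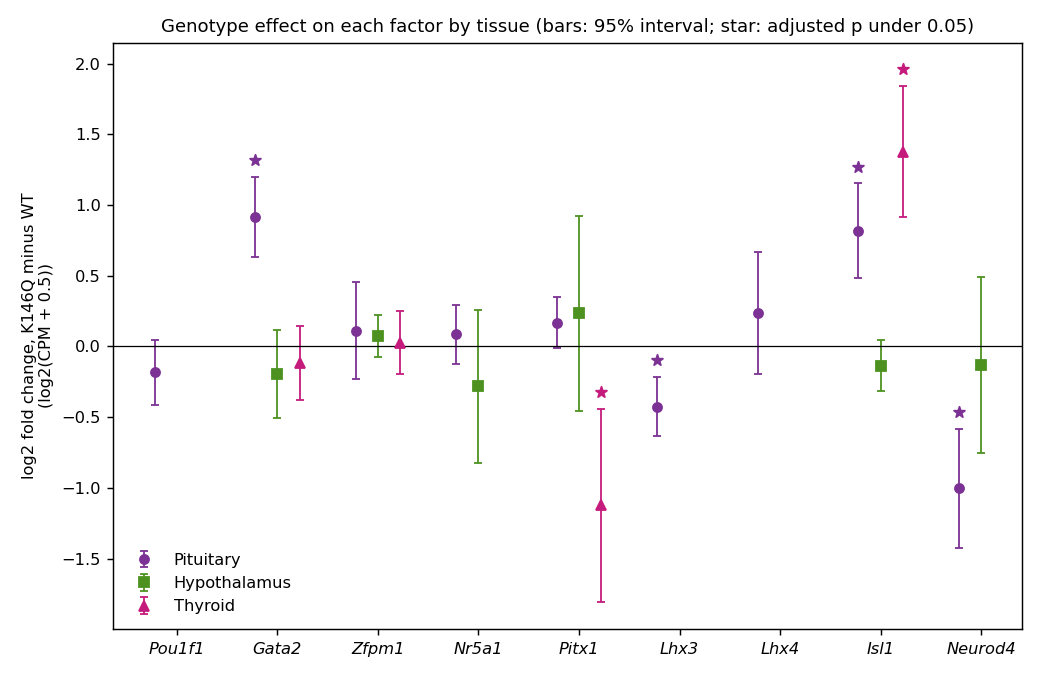
Log2 fold change of each factor, K146Q minus WT, on the log2(CPM + 0.5) scale in each tissue where it passed the filter on low values, with the 95% interval from limma and a star where the adjusted p was under 0.05. Gata2 carries a star in pituitary (0.92) and Isl1 in pituitary (0.82) and thyroid (1.38), and every hypothalamic interval includes 0.

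Whether the genotype effects themselves differed between tissues was tested in 1 model over all 18 libraries. Its filter kept all 9 factors, although 3 had not passed in hypothalamus alone and 5 had not in thyroid alone. For those factors the other side of the difference rests on few or no reads. The factors called below were among the 6 and 4 that had passed in hypothalamus and in thyroid. The effect on Gata2 was larger in pituitary than in hypothalamus by 1.11 on the log2 scale (SE 0.19, limma adjusted p = 0.00262) and larger than in thyroid by 1.03 (SE 0.19, adjusted p = 0.000525). Both differences passed under all 16 alternatives. For pituitary against hypothalamus 2 of 9 factors were called, where 3.24% of 17140 genes were, both with a positive difference (2.29% of genes). The second was Isl1 with a difference of 0.95 (SE 0.23, limma adjusted p = 0.0319). With the mouse as a block the adjusted p of Isl1 was 0.0547. It was 0.0634, 0.0734, 0.0967, 0.141 and 0.177 without mouse 1, 2, 43, 60 and 62. Neurod4 did not pass against hypothalamus (difference -0.87, SE 0.34, limma adjusted p = 0.215), where it had 6 to 20 reads per library. For pituitary against thyroid 2 of 9 factors were called, where 33.8% of genes were (17.4% with a positive difference). The other was Pitx1 with a difference of 1.29 (SE 0.38, limma adjusted p = 0.0151). The adjusted p of Pitx1 was 0.0576, 0.0833 and 0.0546 without mouse 1, 43 and 83. Pitx1 was called lower in thyroid (log2 fold change -1.12) and was not called in pituitary (0.17). The Isl1 effects in pituitary and thyroid differed by -0.56 (95% interval -1.05 to -0.064, adjusted p = 0.0767; 0.0157 and 0.0286 without mouse 1 and 60). Both comparisons share the pituitary libraries.

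Of the 12 hormone and receptor genes that mark the lineages, 3 rose and 2 fell in pituitary, beside 6.36% and 3.50% of all genes tested. The rises were those of Tshb, the thyrotropin beta subunit (log2 fold change 4.03, SE 0.30, limma adjusted p = 9.24e-05), Trhr, the receptor for thyrotropin-releasing hormone (2.75, SE 0.25), and Cga, the shared glycoprotein alpha subunit (2.42, SE 0.14). Prl (log2 fold change -1.65, SE 0.18, limma adjusted p = 0.000603) and Ghrhr, the receptor for growth hormone-releasing hormone (-0.48, SE 0.094, adjusted p = 0.0116; 0.0669 without K146Q mouse 60), fell. Gonadotrope genes did not pass the test. Lhb was 612 to 807 CPM in WT mice and 690 to 723 CPM in K146Q mice, and Fshb, with a log2 fold change of 0.19, and Gnrhr, with -0.24, had adjusted p-values of 0.456 and 0.319. Gh had a log2 fold change of -0.97 (SE 0.30, limma adjusted p = 0.0737).

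Among 24 other pituitary transcription factors 23 were tested in pituitary, of which 2 rose and 2 fell, beside 6.36% and 3.50% of all genes tested. Foxl2, a forkhead factor of thyrotropes and gonadotropes, rose by a log2 fold change of 0.93 (SE 0.20, limma adjusted p = 0.0189; 0.0896 and 0.0656 without K146Q mouse 60 and 62). Rxrg, a retinoid X receptor that pairs with thyroid hormone receptors, rose by 0.45 (SE 0.072, adjusted p = 0.00466) and kept its call under all 15 alternatives. Six6, a homeobox factor of the early gland, fell (log2 fold change -0.28, SE 0.067, adjusted p = 0.0306). The adjusted p of Six6 was 0.0687, 0.157, 0.111 and 0.0508 without WT mouse 2 and K146Q mice 60, 62 and 83. The melanotrope and corticotrope factors Pax7 and Tbx19 had adjusted p-values of 0.797 and 0.475.

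No gene of the cofactor lists passed the test in pituitary. Of the 13 genes of the NuRD complex, a chromatin remodeller that FOG proteins recruit, 0 of 13 were called by limma, with a median log2 fold change of 0.00013. Of the 10 LIM cofactors, which bridge LIM homeodomain proteins, 0 of 10 were called, with a median of -0.045, and Ldb1, the main bridging protein, had a log2 fold change of -0.10 (SE 0.085, adjusted p = 0.498). Of the 6 other GATA and FOG genes 2 were tested in pituitary and 0 called. Zfpm2, the second FOG gene, was 3.99 to 6.23 CPM in WT mice and 6.92 to 8.05 CPM in K146Q mice (log2 fold change 0.61, limma adjusted p = 0.0545), and Gata3 was below 0.620 CPM in every pituitary library. In thyroid, where 19.7% of all genes tested were called higher and 18.1% lower, 3 of 13 NuRD genes rose, and 4 LIM cofactors rose and 2 fell of 9 tested. Gata3 fell there (log2 fold change -2.22, SE 0.35, adjusted p = 0.00245). In hypothalamus 0 of the 22 other pituitary factors, 0 of 13 NuRD genes and 0 of 10 LIM cofactors were called.

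The genes whose pattern over all 18 libraries was most like that of each factor were sought among 15430 genes by Pearson's r of log2(CPM + 0.5). The 18 points come from 6 mice and fall into 3 tissues with very different levels, so that r mainly describes the contrast between tissues. For Pou1f1 the nearest were the gonadotrope genes Lhb (r = 0.996), Gnrhr (0.996) and Fshb (0.996), and for Lhx3 they were Myo15, Lhb and Gnrhr (0.995 to 0.996). Pitx1 was nearest to Ghrhr (0.993), Rph3al and Six2, Neurod4 to Ror2 (0.992), Pcsk6 and Ush1c, Nr5a1 to Cdh26 (0.995), Tekt2 and Rax, and Lhx4 to Gm4598 (0.993), C2cd4a and Mettl13. Gata2 was nearest to Ikbip (0.989), Qsox2 and Pramef8. Isl1 was nearest to Dock2 (0.966) and Ctss (0.958), which leukocytes are known to express. Zfpm1, which barely differed between tissues, had the weakest likeness, with Stk38l (0.772), Nol10 and Dnaja1.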

How the data were processed

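Total RNA of snap-frozen hypothalamus, pituitary and thyroid was sequenced on an Illumina system, 18 libraries from 3 mice per genotype. The authors deposited, per tissue, 1 normalized signal value for each gene and library, a CPM of a library size rescaled by a normalization factor. All 24027 symbols found in the 3 tables carried the same authors' average in each, from which 1 joint normalization is inferred. The submitters' processing notes name bcl2fastq 2.17, Bowtie2 2.1.0, RSEM 1.2.15 and mm10. Their order, the annotation and the strand setting are not given in the sources used here. The authors' own log2 fold changes, average log2 values, likelihood ratio scores, p-values and FDR were deposited beside the signal, and apart from the averages none was used.

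Dividing each value by the worth of 1 read gave whole numbers for 100% of values (tolerance 0.01), so the signal was treated as CPM and the recovered reads were used for edgeR and DESeq2. Each tissue was fitted alone with limma 3.58.1 (R 4.3.3) on log2(CPM + 0.5) with a mean-variance trend, for genes of at least 0.5 CPM in at least 3 libraries, and p-values were adjusted by Benjamini-Hochberg over all genes tested. Genotypes within a tissue share no mouse number and were unpaired. Differences between tissues came from 1 fit over 18 libraries. There a shared mouse number was taken to mark the same animal. This is inferred, from the numbers and from a description of 3 mice per genotype, and is not stated for each library. Deviations from the group mean correlated at -0.027 to 0.174 (median 0.0833) over 18 pairs of libraries of the same mouse and at -0.144 to 0.0665 (median -0.0311) over 36 pairs of different mice, and the mouse was a block in an alternative. Gene lengths and positions are from GENCODE M21 (GRCm38). The alternatives were another pseudocount (0.1 or 1), no filter, 3 other scalings, no trend, edgeR 4.0.16, DESeq2 1.42.0 and each mouse left out. On simulated pituitary counts with 200 changed genes, limma recovered 91% of changes of 1 and 100% of changes of 2 on the log2 scale, with 5.45% false calls. Changes of 1 were recovered at 98% in hypothalamus and 69% in thyroid. For the differences against hypothalamus and thyroid the values were 71% and 68%. Genes of the lowest and highest levels were not changed, so this does not cover Lhx4 in pituitary or factors with few reads elsewhere, such as Pitx1 in thyroid.

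The factors were all named. From the gene lists, genes called in pituitary were named (up to 6 per list by size), and others where a value bears on a factor; Pax7, Tbx19, Lhb, Fshb, Gnrhr, Gh, Ldb1, Zfpm2 and Gata3 were named after their values were seen. Members and lists were chosen with earlier results of these data known. Within a tissue, limma p-values rest on the spread between 3 mice per group, combined with the spread of other genes of similar level. In the fit of differences between tissues, the spread was pooled over the groups of all 3 tissues. Libraries of the same mouse were treated as independent there, except in the alternative with the mouse as a block. Values of some genes that these rules name are not reported here.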

Additional observations from a re-analysis of the deposited data

Results flagged for a closer look

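In 4 cases the genotype effect on a factor differed between tissues by the test of the difference itself (limma over 18 libraries, each difference on the log2 scale). The Gata2 effect was 1.11 higher in pituitary than in hypothalamus (adjusted p = 0.00262) and 1.03 higher than in thyroid (adjusted p = 0.000525), and K146Q exceeded WT in all 3 mice in pituitary only. The Isl1 effect was 0.95 higher in pituitary than in hypothalamus (adjusted p = 0.0319, and 0.0547 with the mouse as a replicate block). That difference was called under 9 of 16 alternatives, against 16 of 16 for each Gata2 difference. The Pitx1 effect was 1.29 higher in pituitary than in thyroid (adjusted p = 0.0151), where Pitx1 rests on 13 to 67 reads per library. Pitx1 was called lower in thyroid (log2 fold change -1.12) and was not called in pituitary (0.17). The Pitx1 difference was called under 13 of 16 alternatives. With 3 libraries in each group, no library was tested for standing apart from its group.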

How the results depend on the processing

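Of 15 alternatives in pituitary, Gata2 kept its call in 14, Neurod4 in 14, Isl1 in 13 and Lhx3 in 10, and in thyroid Isl1 kept its call in 15 and Pitx1 in 11. Without the filter the number of factors called was 0 in pituitary, 1 in thyroid and 1 for pituitary against hypothalamus, and the genes called were 291 in pituitary and 12 in hypothalamus, where DESeq2 called 9. The cause was not tested. With the mouse as a replicate block 1 factor was called for pituitary against hypothalamus, and the block changed no other call of a factor. Leaving out each mouse in turn gave 2 to 4 factors and 625 to 1345 genes called in pituitary (the fewest without K146Q mouse 60), 0 to 6 genes in hypothalamus, and 1 to 2 factors and 3602 to 5106 genes in thyroid (the fewest without K146Q mouse 62). Differences between tissues were called for 1 to 2 factors against hypothalamus and 1 to 3 against thyroid. The sign turned only for small effects that were not called. Without the 10 highest genes in the totals, Zfpm1 was -0.067 in thyroid and its difference against hypothalamus -0.022. Leaving out a mouse, Zfpm1 ran from -0.046 to 0.21 in pituitary and -0.025 to 0.087 in thyroid, and its differences from -0.11 to 0.17 (hypothalamus) and -0.13 to 0.24 (thyroid). In hypothalamus Nr5a1 ran from -0.48 to 0.033 and Neurod4 from -0.33 to 0.14, and the Pitx1 difference against hypothalamus from -0.30 to 0.24. With 3 mice per group and few reads of Lhx4, and of most factors outside pituitary, small changes are beyond this depth.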
